A study of Mus musculus with 18 samples.

Results

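The transcripts described are those of 10 amino acid transporters, chosen as the probes in the deposited files whose gene symbol is Slc7a1, Slc7a5, Slc7a6, Slc3a2, Slc1a4, Slc1a5, Slc38a1, Slc38a2, Slc6a9 or Slc43a1. The files name 19057 genes, 9 of the 10 among them with 22 probes in all, and 7 had a probe that could be tested. Slc7a5 had no named probe here, and Slc7a1 and Slc1a5 had probes that were hardly ever above background. The cells were AML12, a mouse hepatocyte line that was derived from animals carrying a transgene for human TGF-alpha. All were kept in complete DMEM with 10% serum and treated for 24 h, with PBS alone (n = 5), 1 mM octanoate (n = 4), 2 mM octanoate (n = 5) or 5 mM octanoate (n = 4). Octanoate is a medium-chain fatty acid, and the study's title is about lipid carbon and histone acetylation.

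Cells take up amino acids through carriers of several families that differ in substrate and driving force. Sodium-coupled carriers such as Slc38a2 and Slc6a9 concentrate amino acids inside the cell, exchangers such as Slc1a4 and Slc1a5 swap one amino acid for another, and the light chains Slc7a5 and Slc7a6 reach the plasma membrane only when bound to the heavy chain Slc3a2. Many of these genes are known targets of ATF4, a transcription factor that is made in larger amounts, through translation of its mRNA, when amino acids are short. In liver, amino acids that are taken up serve protein synthesis, urea formation and glutathione synthesis.

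Levels are normalized log2 intensities of a probe, and fold changes are differences between group means of such levels. Brightness differs between probes for reasons other than transcript number, so no transporter's level is set against another's. A probe entered the tests if its detection p was under 0.05 on at least 4 of the 18 arrays, and a gene is represented by its brightest tested probe. Calls are at adjusted p under 0.05 in limma, adjusted over all 20536 tested probes. Arrays detected 17446 to 19842 probes each, and the highest mean was at 5 mM (19279 against 17918 in PBS). Replicates correlated at 0.988 to 0.995 across tested probes, and no 2 arrays held identical values. Whether the replicates came from separate cultures is not in the labels, and the p-values measure only how far these samples differ, in part perhaps technically. Arrays sat on 3 BeadChips of 6, slides that each carry 6 samples. BeadChip 1 held the PBS arrays and 1 mM replicate 1, BeadChip 2 the other 1 mM arrays with 2 mM replicates 1 to 3, and BeadChip 3 the rest of the 2 mM arrays with all 5 mM arrays. Within 1 mM, replicates 1 and 4 stood apart on the leading component of the deviations from the group means, at −26.3 and 22.4, while all other arrays lay between −3.71 and 3.55.

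The label of the cells was set against 11 hepatocyte markers. Ttr, Apob, Serpina1a and Hnf4a were detected on all 18 arrays and Apoa1 on 12, whereas Alb, Apoa2, Fgb and Cps1 were not above background on any array, Ahsg was so on 1, and Tf had no named probe. The biliary markers Krt19, Krt7 and Sox9 were also detected on all 18 arrays, whereas Epcam and Prom1 were on none and Spp1 had no named probe. Of the macrophage markers Cd14 was detected on all arrays and Csf1r on 6. Adgre1 was detected on none, Ptprc and Clec4f on 1 each, and Cd68 had no named probe. Of the stellate and fibroblast markers Des was detected on 14 arrays, Acta2 on 7, Dcn on 6 and Col1a2 on 1. The collagen genes Col1a1 and Col3a1, with Pdgfrb and Lrat, were not detected on any array. Of the endothelial markers Tek was detected on 7, Kdr on 4, Cdh5 and Stab2 on 2 each, Pecam1 on 1 and Vwf on none. Counts are for a gene's most often detected probe. The summed linear level of the 5 tested hepatocyte markers rose with dose, from 3016 to 3363 in PBS through 4299 to 4651 at 1 mM and 5472 to 6775 at 2 mM to 11945 to 13164 at 5 mM. All 5 were called higher at 5 mM, by 0.77 (Apoa1) to 4.22 (Ttr) log2 units. The biliary markers went opposite ways at 5 mM, with Krt7 at −1.08, Krt19 at −0.25 and Sox9 at 0.34, all called, and their summed level was 4928 to 5210 in PBS and 5322 to 6090 at 5 mM. Of the 2 tested macrophage markers Cd14 fell by 0.87 at 5 mM and Csf1r was not called (0.16, adjusted p = 0.218), with a summed level of 2303 to 2973 in PBS and 1359 to 1547 at 5 mM. The summed level of the 3 tested stellate markers was 26 to 46 in PBS and 46 to 79 at 5 mM, where Des (0.68) was called higher and Acta2 was not called. The tested Dcn probe was also called higher, but was above background on 0 PBS arrays. It passed the filter through octanoate arrays alone, so its call is no support for a rise. The summed level of the 2 tested endothelial markers was 26 to 42 in PBS and 17 to 20 at 5 mM, where Tek was not called. Kdr was called lower at 5 mM (−0.40), near background. It was detected on 4 arrays, of which 3 had PBS, and so passed the filter mainly through PBS. The part of these markers in the changes of the transporters was not tested.

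Promoter windows of 3 transporters are shown because their transcripts rose together at 5 mM, and a sequence bound by ATF4 was looked for in them. The windows come from RefSeq (GRCm38.p6), reach from 250 bases before to 50 bases after a transcription start, and were found for 7 of the 10 genes, with 11 starts in all. Stretches from 100 bases before to 30 bases after the start are printed 5′ to 3′, with capitals for a match to TGATGNAA, the core of the amino acid response element, on either strand. They lie at chr11:20332684-20332813 (minus strand) for Slc1a4, at chr19:8713868-8713997 (minus strand) for Slc3a2 and at chr4:117835158-117835287 (plus strand) for Slc6a9.
Slc1a4: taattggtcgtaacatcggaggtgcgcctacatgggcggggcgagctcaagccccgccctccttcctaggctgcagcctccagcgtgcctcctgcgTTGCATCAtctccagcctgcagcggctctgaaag
Slc3a2: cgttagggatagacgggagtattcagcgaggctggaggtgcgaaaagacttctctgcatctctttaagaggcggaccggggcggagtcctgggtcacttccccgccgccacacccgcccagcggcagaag
Slc6a9: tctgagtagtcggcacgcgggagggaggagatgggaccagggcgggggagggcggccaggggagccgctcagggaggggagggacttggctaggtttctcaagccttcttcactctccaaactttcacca
Slc1a4 held a match on the opposite strand, from base −4 to base 4 around the start. It was the single match in the 11 windows, and 3.97% of 32851 RefSeq windows of the same length held one. The other 2 windows of Slc6a9, at starts further into the gene, held none, and neither did those of Slc3a2, Slc7a6, Slc7a1, Slc38a2 and Slc43a1. The E-box CACGTG, a palindrome bound by Myc, was present in 1 of the 11 windows, that of Slc43a1 from base −64 to base −59, and in 7.15% of all windows. These matches describe the letters of the windows and do not show binding. Sequence beyond the windows was not searched, so a match elsewhere in a gene would be missed.

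At 5 mM, 3 transporters were higher than in PBS by their brightest probes, and none was lower by that measure. Slc1a4 rose 1.90-fold, Slc6a9 1.42-fold and Slc3a2 1.37-fold, while Slc7a6, Slc38a2, Slc38a1 and Slc43a1 did not pass the test. A second bright Slc38a2 probe was called lower at 5 mM (−0.42, limma adjusted p = 0.000205), as described below. The 3 of 7 tested genes stand beside 31.9% of all 10605 tested genes that were called higher at 5 mM, 26.7% called lower and 58.7% called in either direction, a background near the share among the transporters. The median log2 fold change of the 7 was 0.04, against 0.01 for all tested genes. Levels were measured in bulk RNA, where fewer cells that carry a transcript and less of it per cell cannot be told apart.

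**Figure D1:**
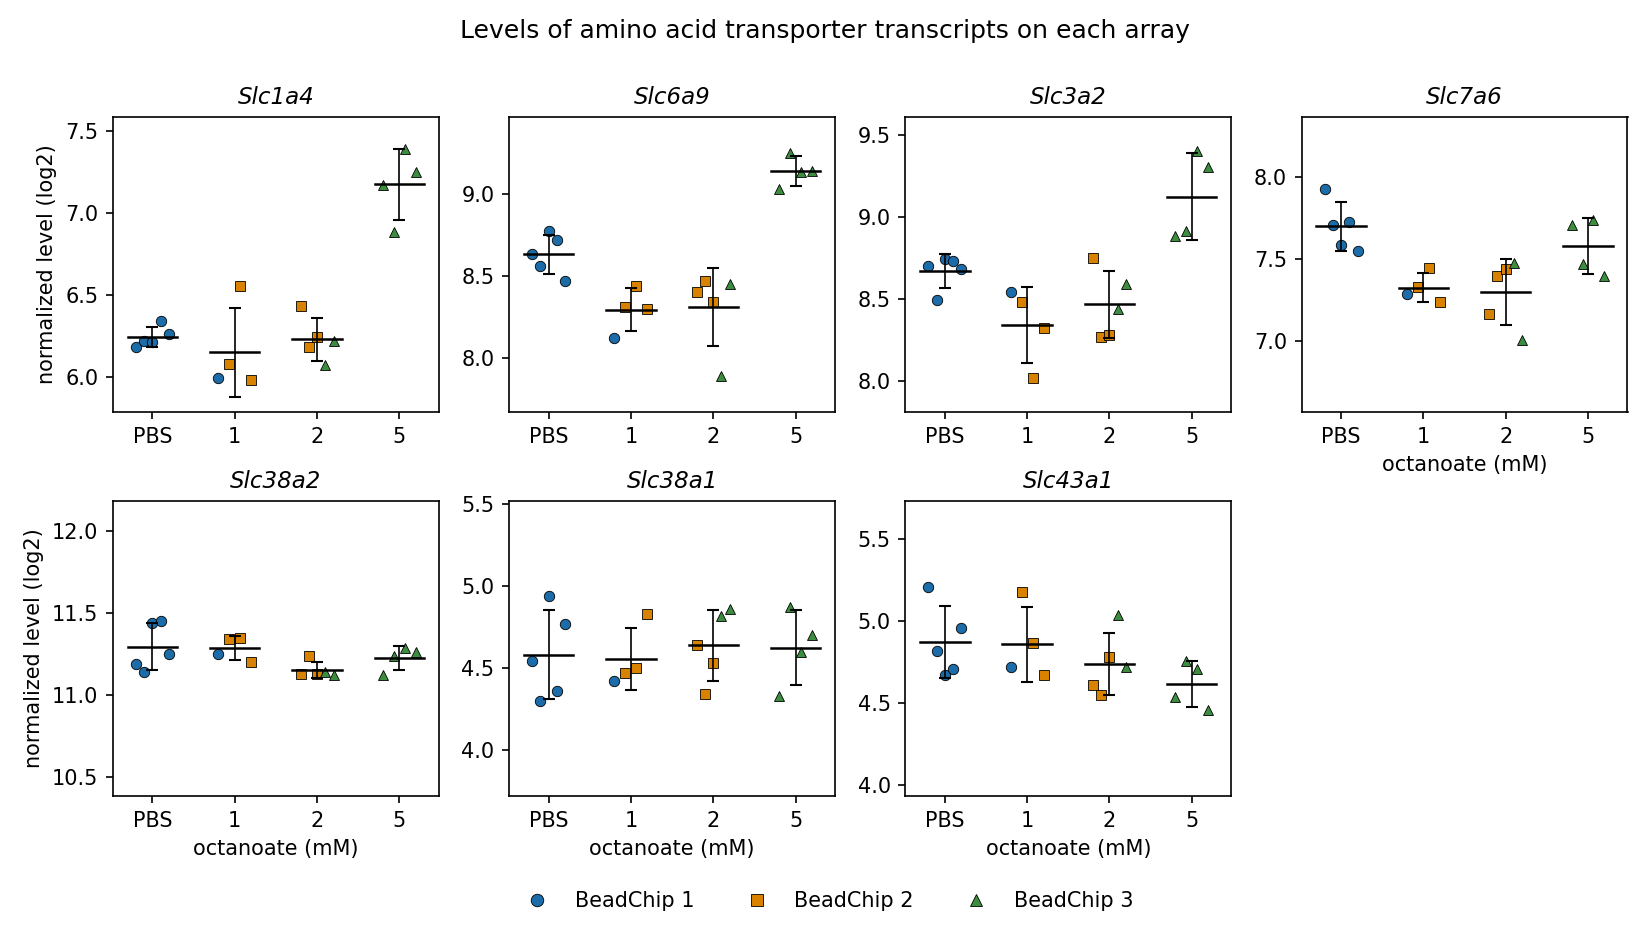
Normalized log2 level of the brightest tested probe of each transporter on every array (y axis; each panel spans 1.8 log2 units) by octanoate dose in mM (x axis), with symbols by BeadChip, horizontal lines for group means and error bars for SD. All 4 arrays at 5 mM lie above every other array for Slc1a4, Slc6a9 and Slc3a2, Slc7a6 is lowest at 1 and 2 mM, and Slc38a2, Slc38a1 and Slc43a1 overlap between doses.

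Slc1a4 encodes ASCT1, an exchanger of alanine, serine, cysteine and threonine. Its log2 levels in PBS were 6.18, 6.22, 6.21, 6.34 and 6.26. At 1 mM they were 5.99, 6.08, 6.55 and 5.98, and at 2 mM 6.43, 6.18, 6.24, 6.07 and 6.22. At 5 mM they were 7.17, 6.88, 7.39 and 7.25. The 3 lower groups overlapped one another, and every array at 5 mM lay above all the others. The group means were 6.24 ± 0.06 (SD, n = 5), 6.15 ± 0.27 (n = 4), 6.23 ± 0.13 (n = 5) and 7.17 ± 0.21 (n = 4) in order of dose. Slc1a4 rose by 0.93 ± 0.12 log2 units (SE) at 5 mM against PBS (limma adjusted p = 9.43e-07) and by 0.94 ± 0.12 against 2 mM (adjusted p = 2.75e-06). Neither 1 mM (−0.09 ± 0.12, adjusted p = 0.628, 95% interval −0.34 to 0.15) nor 2 mM (−0.01 ± 0.11, adjusted p = 0.936, interval −0.24 to 0.21) differed detectably from PBS. On BeadChip 3 alone, the 2 arrays at 2 mM read 6.07 and 6.22, against 6.88 to 7.39 at 5 mM. Slc1a4 still passed with BeadChip as a term in the fit, at 0.86 against PBS (adjusted p = 0.031) and 1.03 against 2 mM (adjusted p = 6.01e-05). For every gene, that fit ties PBS to the other groups through a single array, 1 mM replicate 1, which stood apart within its group. The probe was dim, with unprocessed intensities of 135 to 329, and in the authors' processed table its difference was 0.33 for both comparisons, also called.

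Slc1a5, or ASCT2, the related exchanger that also carries glutamine, had 5 probes, of which none could be tested. Its most often detected probe was above background on 3 of 18 arrays, 1 in PBS and 2 at 5 mM, with unprocessed intensities of 92.8 to 131. The 4 others were detected on 1 array at most. The Slc1a5 level was therefore not detectable with these probes in most samples, and without the filter on dim probes its brightest probe differed from PBS by −0.12, −0.17 and −0.07 log2 units at 1, 2 and 5 mM (adjusted p = 0.659, 0.366 and 0.783).

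Slc6a9, the glycine transporter GlyT1, followed a curve with a dip. Levels in PBS were 8.63, 8.56, 8.77, 8.72 and 8.47, while with 1 mM they were 8.12, 8.31, 8.44 and 8.30. At 2 mM they were 8.40, 8.47, 8.34, 7.89 and 8.45, and at 5 mM 9.03, 9.25, 9.13 and 9.14. All 1 mM arrays lay below all PBS arrays, the highest 2 mM array and the lowest PBS array were both at 8.47, and all 5 mM arrays lay above every other array. The fall was 0.34 log2 units at 1 mM (−0.34 ± 0.11, adjusted p = 0.0346) and 0.32 at 2 mM (−0.32 ± 0.10, adjusted p = 0.017), and the rise at 5 mM was 0.51 ± 0.11 (adjusted p = 0.00047). From 2 to 5 mM Slc6a9 rose by 0.83 ± 0.11 (1.78-fold, adjusted p = 5.6e-06). With BeadChip as a term the differences from PBS were −0.51, −0.46 and 0.52 and none passed (adjusted p = 0.0735, 0.17 and 0.135). In that fit PBS is tied to the other groups through a single array, 1 mM replicate 1. The step from 2 to 5 mM was 0.97 (adjusted p = 2.63e-05) in the same fit, and on BeadChip 3 alone the 2 mM arrays read 7.89 and 8.45. The fall at 1 mM was not stable: it lost the call when PBS replicate 1, 3 or 4 or 1 mM replicate 1, 2 or 4 was left out (adjusted p = 0.0583, 0.0821, 0.072, 0.101, 0.0603 and 0.0662), and was −0.26 without 1 mM replicates 1 and 4 and 2 mM replicate 5 (adjusted p = 0.242). A further Slc6a9 probe was not detected on any array.

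The heavy chain Slc3a2, or CD98hc, anchors several light chains, among them Slc7a5, Slc7a6 and Slc7a7. Its levels were 8.70, 8.49, 8.74, 8.73 and 8.68 in PBS and 8.54, 8.48, 8.02 and 8.32 at 1 mM. They were 8.75, 8.27, 8.28, 8.44 and 8.59 at 2 mM and 8.88, 8.91, 9.40 and 9.30 at 5 mM. The arrays at 1 and 2 mM overlapped those in PBS, and all 5 mM arrays lay above the rest. Slc3a2 rose by 0.45 ± 0.13 log2 units at 5 mM against PBS (adjusted p = 0.00595) and by 0.65 ± 0.13 against 2 mM (1.57-fold, adjusted p = 0.000622). The differences at 1 mM (−0.33 ± 0.13, adjusted p = 0.0864, interval −0.60 to −0.06) and 2 mM (−0.20 ± 0.12, adjusted p = 0.208, interval −0.46 to 0.05) did not pass, although 1 mM passed with median scaling (−0.51, adjusted p = 0.0315) and with a larger offset (−0.30, adjusted p = 0.0481). In the fit with BeadChip as a term Slc3a2 was 0.64 above PBS at 5 mM (adjusted p = 0.158) and 0.60 above 2 mM (adjusted p = 0.0149), so that the step between the 2 highest doses passed and the difference from PBS did not.

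Slc7a6, the light chain y+LAT2, exchanges cationic amino acids such as arginine for glutamine and other neutral amino acids. Its levels were 7.93, 7.71, 7.59, 7.73 and 7.55 in PBS and 7.29, 7.33, 7.45 and 7.24 with 1 mM. They were 7.17, 7.40, 7.44, 7.48 and 7.01 with 2 mM. With 5 mM they were 7.71, 7.47, 7.74 and 7.40. All arrays at 1 and 2 mM lay below all PBS arrays, and the 5 mM arrays overlapped both PBS and 2 mM. Slc7a6 fell by 0.38 log2 units at 1 mM (1.30-fold, SE 0.11, adjusted p = 0.0197) and by 0.40 at 2 mM (1.32-fold, SE 0.10, adjusted p = 0.00383). At 5 mM it was −0.12 ± 0.11 from PBS (adjusted p = 0.363, interval −0.35 to 0.10) and 0.28 ± 0.11 above 2 mM (adjusted p = 0.0567). Sizes were alike with BeadChip as a term, −0.41 at 1 mM and −0.42 at 2 mM, but neither passed (adjusted p = 0.188 and 0.264). The fall at 1 mM also lost its call without PBS replicate 1 (−0.32, adjusted p = 0.0552), without 1 mM replicate 4 (−0.35, adjusted p = 0.0587) and without 1 mM replicates 1 and 4 and 2 mM replicate 5 (−0.31, adjusted p = 0.121). The step from 2 to 5 mM passed with median scaling (0.50, adjusted p = 0.015), the larger offset (adjusted p = 0.0369), probes detected on all arrays (0.0387) and the mean of detected probes (0.0397), and without PBS replicate 1, 2 mM replicate 3, 2 mM replicate 4 or 5 mM replicate 4 (adjusted p = 0.0488, 0.0458, 0.0361 and 0.0352). Slc7a5, or LAT1, another light chain of Slc3a2 and the main carrier of leucine in growing cells, is not analysed here.

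At 1 mM, then, 2 of the 7 tested genes, Slc7a6 and Slc6a9, were lower than PBS by their brightest probes, and 0 were higher. Over all tested genes 8.49% were lower at 1 mM, 11.1% higher and 19.6% either. At 2 mM the same 2 genes were lower and 0 higher, beside 18.7% of all genes lower, 22.1% higher and 40.8% either. Median log2 fold changes of the 7 were −0.09 at 1 mM and −0.14 at 2 mM, against 0 for all tested genes at both doses. At an unadjusted p under 0.05 in limma, 0 were higher and 3 lower at 1 mM (Slc3a2 in addition), 0 higher and 2 lower at 2 mM, and 3 higher and 0 lower at 5 mM. Between 1 and 2 mM none of the 7 passed in limma or in any of the alternatives, at differences of −0.13 to 0.13, and 0 had an unadjusted p under 0.05, where 5.95% of all genes were called (4.26% higher and 1.69% lower). From 2 to 5 mM 3 of the 7 were higher, Slc1a4, Slc6a9 and Slc3a2, and 0 lower, beside 18.9% of all genes higher, 14.6% lower and 33.5% either. The comparisons of each dose with PBS share the same 5 control arrays, and the step from 2 to 5 mM shares its arrays with both, so the members' values stand side by side and are not separate evidence.

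**Figure D2:**
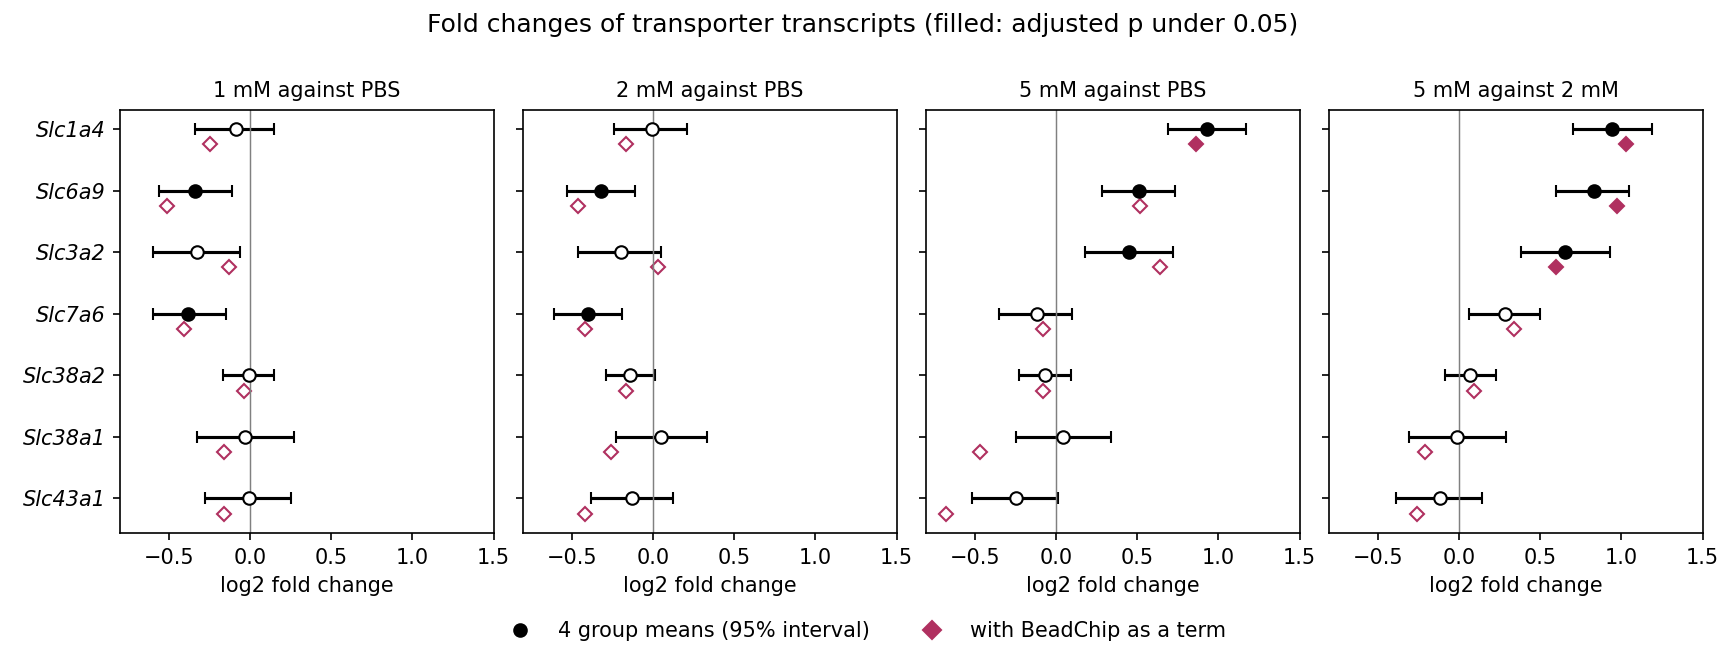
Log2 fold change (x axis) of the brightest tested probe of each transporter (y axis) in 4 comparisons, as black circles with 95% intervals from the fit of 4 group means and as red diamonds from the fit with BeadChip as a term, filled where adjusted p was under 0.05. Slc1a4, Slc6a9 and Slc3a2 are filled in both fits for 5 mM against 2 mM, Slc1a4 alone is filled in both for 5 mM against PBS, and no diamond is filled at 1 or 2 mM.

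Slc38a2, or SNAT2, is a sodium-coupled carrier of small neutral amino acids whose gene is known to be induced by amino acid shortage. It was well above background, with unprocessed intensities of 1750 to 3340 for the brightest probe. That probe read 11.19, 11.14, 11.44, 11.45 and 11.25 in PBS and 11.25, 11.34, 11.35 and 11.20 with 1 mM. It read 11.13, 11.24, 11.13, 11.14 and 11.12 with 2 mM, and 11.12, 11.24, 11.29 and 11.26 with 5 mM. All groups overlapped, and 4 of the 5 arrays at 2 mM lay at 11.12 to 11.14, at the low end of PBS. Differences from PBS were −0.01 (interval −0.17 to 0.15), −0.14 (−0.29 to 0.01) and −0.07 (−0.23 to 0.09) at 1, 2 and 5 mM, none past the threshold (adjusted p = 0.947, 0.141 and 0.483). In the authors' processed table the same probe passed at 2 mM (−0.15, adjusted p = 0.0352).

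The Slc38a2 second probe gave another result. It read 11.18, 11.15, 11.02, 11.16 and 11.03 in PBS and 10.74, 10.85, 10.93 and 10.94 at 1 mM. It read 10.87, 10.71, 10.62, 10.78 and 10.83 at 2 mM and 10.80, 10.51, 10.66 and 10.79 at 5 mM. No array with octanoate reached the lowest PBS array. This probe fell by 0.24 log2 units at 1 mM (adjusted p = 0.0484), by 0.34 at 2 mM (adjusted p = 0.00152) and by 0.42 at 5 mM (1.34-fold, SE 0.08, adjusted p = 0.000205). With BeadChip as a term the second probe was at −0.54 at 2 mM and −0.66 at 5 mM, both past the threshold (adjusted p = 0.0435 and 0.0195), and at −0.37 at 1 mM (adjusted p = 0.11). The 1 mM call was lost under 19 of 28 alternatives, 13 of which left out 1 array, with an adjusted p of up to 0.196 over all of them. The third, which was dim, was detected on 13 arrays and was lower in sign at each dose (−0.28, −0.30 and −0.31, adjusted p = 0.184, 0.0896 and 0.0732). It passed at 2 mM without PBS replicate 3 (adjusted p = 0.0353) or 2 mM replicate 5 (0.0289), and at 5 mM without PBS replicate 3 (0.0259). With the mean of the 3 probes in place of the brightest, Slc38a2 was −0.26 at 2 mM (adjusted p = 0.00161) and −0.27 at 5 mM (adjusted p = 0.00125). The probes thus disagreed on whether Slc38a2 changed, and none of the 3 was called higher at any dose. The parts of the transcript they cover were not examined.

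**Figure D3:**
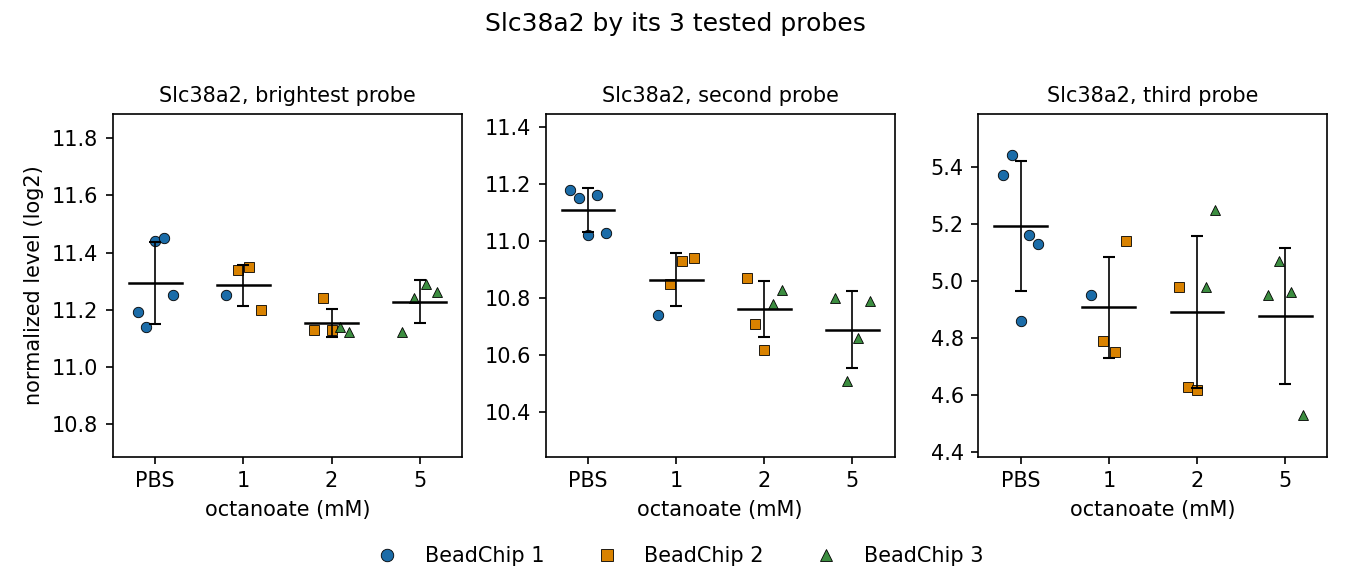
Normalized log2 level of the 3 tested Slc38a2 probes (y axis, 1.2 log2 units in each panel) on every array by octanoate dose in mM (x axis), with symbols by BeadChip, lines for group means and bars for SD. The brightest probe overlaps between doses, whereas the second probe is lower on all octanoate arrays than on any PBS array.

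The remaining transporters were at or near background. Slc38a1, or SNAT1, the close relative of Slc38a2 in system A transport, was detected by its tested probe on 4 arrays, of which 1 had PBS, 2 had 2 mM and 1 had 5 mM. Levels ran from 4.30 to 4.94 in PBS, and from 4.33 to 4.87 at 5 mM, with differences from PBS of −0.03, 0.05 and 0.04 (adjusted p = 0.913, 0.793 and 0.824). Slc43a1, or LAT3, which lets large neutral amino acids pass without an ion gradient, was detected on 2 PBS arrays, on 1 array each with 1 mM and 2 mM, and on 0 with 5 mM. Its level ran from 4.67 to 5.21 in PBS and from 4.46 to 4.76 at 5 mM, and the test was not passed (−0.25 ± 0.13, adjusted p = 0.0989), with a probe that was not above background at 5 mM. The groups overlapped for both genes at every dose. Both passed the detection filter with arrays from 3 groups and not through 1 group.

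Slc7a1, or CAT1, the widespread carrier of arginine and lysine, had 2 probes that were not tested, 1 detected on a single PBS array and the other on none. Unprocessed intensities were 96.4 to 124 and 89.3 to 117. Without the filter the brighter Slc7a1 probe was called lower at 2 mM (−0.41 ± 0.10, adjusted p = 0.0078) and 5 mM (−0.39 ± 0.11, adjusted p = 0.0113), but no octanoate array had it above background. No level in the treated cells can be given for it.

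The genes closest in pattern were found by the root mean square difference of log2 levels over the 18 arrays, each gene centred on its mean in PBS. The closest was Slc19a2, a thiamine carrier, for Slc1a4 (0.19 log2 units), with a mean change of 0.71 at 5 mM. Anxa8, an annexin, was closest to Slc6a9 (0.17), at −0.17 and −0.14 at 1 and 2 mM and 0.51 at 5 mM. For Slc3a2 it was Ogfod2 (0.19) and for Slc7a6 the galectin Lgals3 (0.13), the latter with −0.31, −0.43 and −0.17 at 1, 2 and 5 mM. Marchf6, a ubiquitin ligase of the endoplasmic reticulum, was closest to the brightest Slc38a2 probe (0.08), Srsf5 to Slc38a1 (0.15) and Trp53rka to Slc43a1 (0.12), where the likeness is between small changes. For Slc1a4, Slc6a9 and Slc3a2 several other genes lay almost as close, so the named gene is not set apart from them. Among the transporters themselves Slc3a2 and Slc6a9 each had the other as its nearest (0.25), and Slc6a9 was also the nearest to Slc1a4 (0.33). Closer pairs were Slc38a2 with Slc43a1 (0.23) and Slc38a2 with Slc38a1 (0.24), whose changes were small.

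Other carriers of amino acids did not move as one group. Of 37 further plasma membrane transporters 14 could be tested. At each of 1 and 2 mM 3 rose and 1 fell. The shares of all tested genes were 11.1% higher and 8.49% lower at 1 mM, and 22.1% and 18.7% at 2 mM. At 5 mM 4 rose and 2 fell (median 0.10), beside 31.9% of all tested genes higher and 26.7% lower. Slc7a3, or CAT3, another cationic carrier, rose by 1.82 ± 0.14 log2 units (3.53-fold, adjusted p = 1.4e-09), although a second probe gave 0.03. Slc7a7, the light chain y+LAT1, rose at every dose, by 0.82 ± 0.11 with 1 mM, 1.04 ± 0.10 with 2 mM and 1.40 ± 0.11 with 5 mM (adjusted p = 4.24e-05, 2.08e-07 and 1.38e-09). It is the close relative of Slc7a6 and binds the same heavy chain, and it was higher at each dose while Slc7a6 was lower at 1 and 2 mM. Slc7a11, the cystine and glutamate exchanger and a further light chain of Slc3a2, was added after its values were seen and was not called at any dose (−0.02, −0.27 and 0.04, adjusted p = 0.927, 0.07 and 0.825). Slc38a3, a glutamine carrier of hepatocytes, stayed at background throughout PBS. It was detected on 1 array at 1 mM, all 5 at 2 mM and all 4 at 5 mM, and passed the filter through these octanoate arrays alone. As bounds, it was at least 1.33-fold higher at 2 mM and 2.52-fold at 5 mM. The limma adjusted p of 1.05e-05 at 2 mM and 6.33e-11 at 5 mM belong to the differences without the bound. Over the alternatives its change at 5 mM ran from 0.30 to 1.81 log2 units, and that of Slc7a7 from 0.52 to 1.59, both called wherever tested. Slc7a3 and Slc7a7 also passed at 5 mM with BeadChip as a term, at 1.30 and 1.27. In the authors' processed table the change of Slc7a3 was smaller, at 0.46, and called.

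Inside the cell, 6 of 9 lysosomal transporters and 8 of 12 mitochondrial carriers could be tested. Of the lysosomal ones 2 rose and 2 fell at 5 mM (median 0.15), beside 31.9% of all tested genes higher and 26.7% lower. Slc36a1, a proton-coupled carrier, rose by 1.27 ± 0.13 (adjusted p = 4.19e-08), and Slc66a1, an exporter of cationic amino acids, fell by 0.63 (SE 0.12, adjusted p = 0.000114), which did not hold with BeadChip as a term (−0.80, adjusted p = 0.051). Slc38a9, the arginine sensor of the lysosome, was 0.43 ± 0.15 higher (adjusted p = 0.0198), but turned to −0.30 with BeadChip as a term (adjusted p = 0.527), had a second probe at 0.13, and lost the call without 5 mM replicate 1 (0.38, adjusted p = 0.0615) or replicate 4 (0.35, adjusted p = 0.076). Of the mitochondrial ones 2 rose and 3 fell at 5 mM (median −0.05), beside the same shares of all tested genes. Slc25a12, the aspartate and glutamate carrier, was 0.80 ± 0.12 higher (adjusted p = 9.78e-06), Sfxn2 fell by 0.62 (SE 0.09, adjusted p = 4.82e-06, with 2 of 4 probes called) and Slc25a38, a glycine carrier, by 0.44 (SE 0.08, adjusted p = 0.000113). With BeadChip as a term these 3 were at 0.77, −0.41 and −0.35 and none passed (adjusted p = 0.0693, 0.181 and 0.199), and Slc25a38 also lost its call with median scaling (−0.32, adjusted p = 0.0594).

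Response factors to amino acid shortage and ATF4 targets outside transport fell more often than they rose at each dose against PBS. Of 24 tested 11 fell and 2 rose at 1 mM (median −0.16), 17 fell and 3 rose at 2 mM (median −0.38), and 11 fell and 7 rose at 5 mM (median −0.23). Over all tested genes 8.49%, 18.7% and 26.7% were lower at these doses and 11.1%, 22.1% and 31.9% higher, and the list as a whole was not tested. From 2 to 5 mM 11 rose and 3 fell (median 0.18), beside 18.9% of all tested genes higher and 14.6% lower. When BeadChip was a term 7 fell and 1 rose at 2 mM, and 6 fell and 4 rose at 5 mM. In that fit, of all 10605 tested genes 476 were lower and 838 higher at 2 mM, and 1269 and 1706 at 5 mM. By the rule for naming, Shmt2, the mitochondrial serine hydroxymethyltransferase, fell by 1.37 (SE 0.11, adjusted p = 1.94e-09) and Atf3, a stress-induced repressor, by 1.22 (SE 0.12, adjusted p = 4.73e-08; −0.34 in the authors' processed table) at 5 mM, while the transcription factor Atf5 rose by 0.93 ± 0.07 (adjusted p = 1.88e-09). Atf5 fell by 0.30 at 1 mM and by 0.37 at 2 mM and rose by 1.30 ± 0.07 from 2 to 5 mM (adjusted p = 4.37e-11), a dip and rise in the same order of doses as Slc6a9.

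Atf4, Asns and Trib3 were singled out after their values were seen, as the factor itself and 2 of its targets. Atf4 fell by 0.67 at 2 mM (adjusted p = 4.58e-06) and by 0.72 at 5 mM (adjusted p = 1.1e-06), and differed by −0.05 between these doses (adjusted p = 0.749). Its values with BeadChip as a term were −0.55 and −0.61 (adjusted p = 0.0741 and 0.058). Asns, asparagine synthetase, fell by 0.70 at 2 mM and rose by 0.45 from 2 to 5 mM (adjusted p = 5.77e-08 and 3.66e-05), and at 5 mM it was still lower than in PBS (−0.26, adjusted p = 0.00297), a call lost with BeadChip as a term (−0.36, adjusted p = 0.131) and with median scaling (−0.27, adjusted p = 0.126). Trib3, a pseudokinase that restrains ATF4, fell by 0.78 at 2 mM and rose by 1.18 from 2 to 5 mM (adjusted p = 1.03e-05 and 9.31e-08), and at 5 mM it was higher than in PBS (0.40, adjusted p = 0.00508), a call lost with BeadChip as a term (0.56, adjusted p = 0.0825) and with the mean of its probes (0.18, adjusted p = 0.111). The 2 targets thus lay on opposite sides of PBS at 5 mM. The mRNA of Atf4 thus stayed lower at 5 mM, where Slc1a4, Slc6a9 and Slc3a2 were higher than in PBS. The arrays do not measure ATF4 protein.

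**Figure D4:**
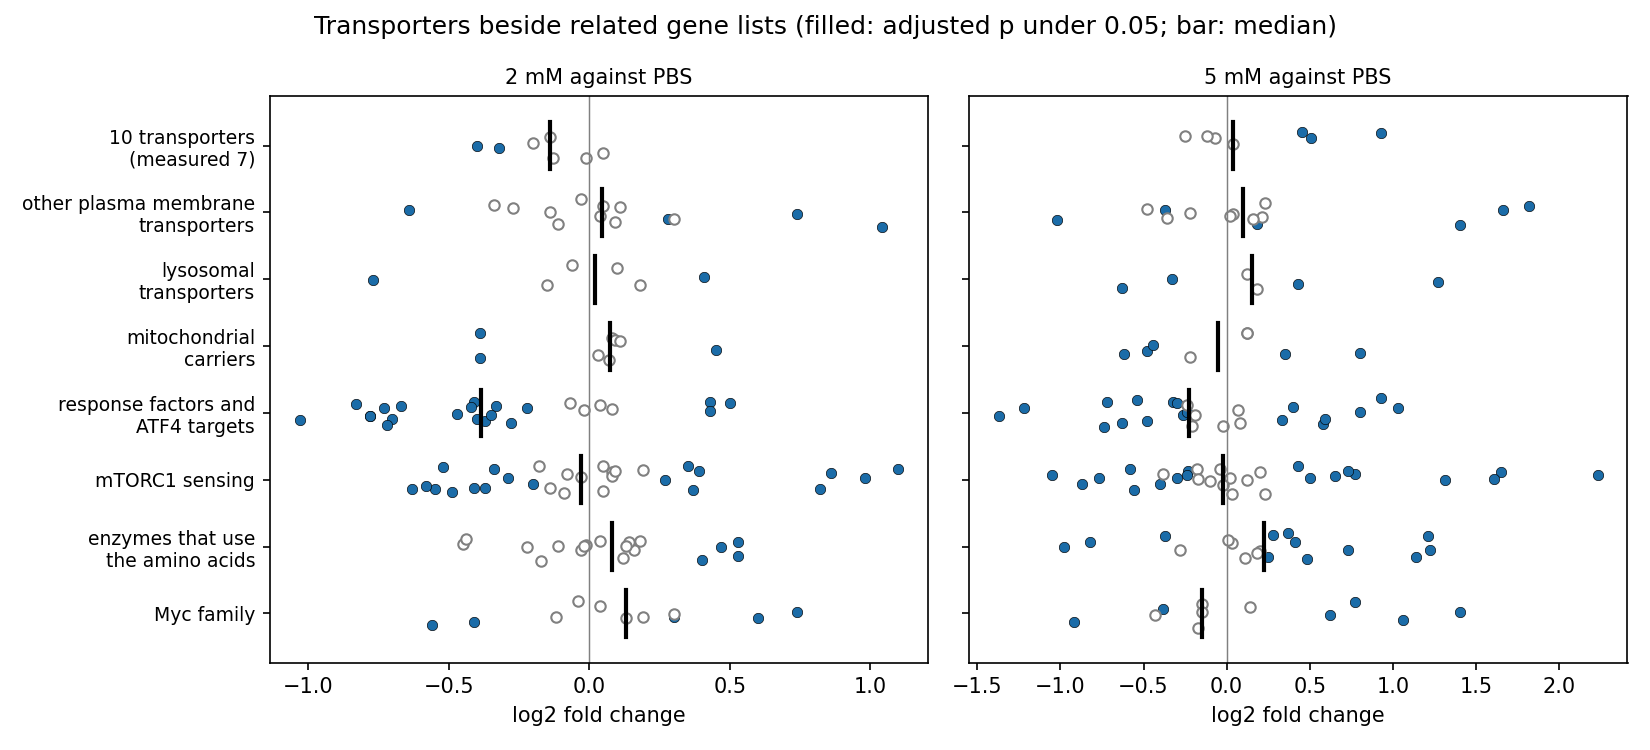
Log2 fold change (x axis) of every tested gene of the 7 measured transporters and of 7 related lists (y axis) at 2 mM and 5 mM octanoate against PBS, filled where adjusted p was under 0.05, with a bar at each list's median. The response factors and ATF4 targets have a median of −0.38 at 2 mM and −0.23 at 5 mM, and all other lists have medians between −0.15 and 0.22.

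Genes of amino acid sensing by mTORC1, the kinase complex that couples amino acid supply to growth, were called about as often as all tested genes at 5 mM. Of 29 tested 8 rose and 10 fell at 2 mM, and 9 rose and 9 fell at 5 mM (median −0.02), beside 22.1% of all genes higher and 18.7% lower at 2 mM and 31.9% and 26.7% at 5 mM. Rragd, a Rag GTPase, rose by 2.23 ± 0.09 (4.69-fold, adjusted p = 2.82e-14), Castor1, an arginine sensor, by 1.65 ± 0.13 (adjusted p = 1.14e-09), and Deptor, an inhibitor of the complex, by 1.61 ± 0.10 (adjusted p = 2.99e-11), with its other probe at 0.65. In the authors' processed table Rragd was at 0.75, a smaller change that was also called. The enzymes that use the transported amino acids had 9 of 18 higher and 3 lower at 5 mM (median 0.22), beside 31.9% and 26.7% of all genes. Glud1, glutamate dehydrogenase, rose by 1.14 ± 0.08 (adjusted p = 2.25e-10) and Gclc, of glutathione synthesis, by 1.21 ± 0.13 (adjusted p = 7.2e-08), while Shmt1, which interconverts serine and glycine in the cytosol, fell by 0.98 (SE 0.08, adjusted p = 1.12e-09).

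Of 11 tested genes of the Myc family 4 rose and 2 fell at 5 mM (median −0.15), beside 31.9% of all tested genes higher and 26.7% lower. Myc, which is known to raise transporter transcription, fell by 0.30, 0.56 and 0.92 with 1, 2 and 5 mM (SE 0.09 each, adjusted p = 0.029, 4.59e-05 and 5e-08). Mxd4, a repressor of the network, rose by 1.06 ± 0.08 (adjusted p = 1.47e-09) and Mycl by 1.40 ± 0.10 (adjusted p = 2.49e-10) at 5 mM. In the BeadChip fit Myc was at −0.82 (adjusted p = 0.0136), Mxd4 at 1.05 and Mycl at 1.25. Mycl was at 0.33 in the authors' processed table, also called.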

How the data were processed

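The 18 arrays were grouped by the treatment in the labels. The authors deposited the bead intensity of 45281 probes on each array, neither background-corrected nor normalized, and a detection p-value beside each intensity, per the file headers and the values. The authors also deposited a processed log2 table, used only as an alternative. The submitters' processing notes name lumi. How that table was normalized is not stated in them.

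R 4.3.3 with limma 3.58.1 and statmod 1.5.0 was used, and neqc normalized the intensities (normal and exponential background model from the detection p-values, offset 16, quantile normalization, log2). Quantile normalization removes a shift of most transcripts in 1 direction, and the offset understates changes of dim probes. Of 45281 probes 20536 (45.4%) were tested. The platform annotation gives a single symbol for 34885 probes, more than 1 for 18 and none here for 10378. For 34807 the symbol was brought up to date by matching Entrez IDs to RefSeq (GRCm38.p6). A gene was represented by its brightest tested probe, 10605 genes in all.

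Group means of all 18 arrays were fitted with lmFit and eBayes (14 residual degrees of freedom, two-sided, Benjamini-Hochberg over tested probes). Tested on simulated data for 5 mM against PBS over 20536 probes, the fit recovered 56% of changes of 0.5 log2 units and 98% of changes of 1. The simulation changed 100 probes by each size, with independent noise and no BeadChip effect. In the data 10986 probes were called in this comparison, so the recovered shares describe the simulated setting only. The number of arrays limits the precision. A group with no detected array has only a bound, set at the higher of the probe and the lowest detected probe on each array.

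Genes named are all the transporters, in each further list the 3 genes of lowest adjusted p for 5 mM against PBS, and for each tested transporter the 1 gene of closest pattern, with Atf4, Asns, Trib3 and Slc7a11 added after their values were seen. The transporters, lists and alternatives were chosen with earlier results of these data known. Alternatives were another scaling, offset, filter, source of values, probe rule, sample set, BeadChip and replicate terms, and each array left out. Those for the further lists, for other Slc38a2 probes and for Atf4, Asns and Trib3 were added after seeing the data. Deviations of same-numbered arrays of different groups correlated at −0.0412 to 0.0538 over 25 pairs (median 0.0181, against −0.00454 for 96 other pairs). Whether numbers pair samples is not in the labels, and correlations this weak over all tested probes do not settle it. Probe sequences were not used here.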

Additional observations from a re-analysis of the deposited data

Results flagged for a closer look

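In 3 of 28 groups of levels (7 genes in 4 groups each) 1 array lay far from the others, measured as its gap to the nearest array over the range of the group; chance gives about 1 in 20. Slc3a2 in PBS replicate 2 was low, at 8.49 against 8.68 to 8.74 on the other PBS arrays. Slc6a9 in 2 mM replicate 4 was low, at 7.89 against 8.34 to 8.47 on the other 2 mM arrays. The brightest Slc38a2 probe in 2 mM replicate 2 was high, at 11.24 against 11.12 to 11.14. The cause of each was not tested, and leaving out any of the 3 arrays changed no call of the brightest probe of these 3 genes.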

How the results depend on the processing

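Each of the 35 fold changes of the 7 tested transporters was recomputed under up to 29 alternatives, and no called change turned its sign. Of 10 called changes 4 kept their call under every alternative, Slc1a4 at 5 mM against PBS (0.33 to 1.14) and the steps from 2 to 5 mM of Slc1a4 (0.33 to 1.16), Slc6a9 (0.59 to 1.03) and Slc3a2 (0.47 to 0.85). The number of transporters called at 1 mM against PBS, 2, was 0 with BeadChip as a term, 0 without 1 mM replicates 1 and 4 and 2 mM replicate 5, 1 without the filter on dim probes and 1 with a replicate block. At 2 mM against PBS it fell from 2 to 0, and at 5 mM against PBS from 3 to 1, with BeadChip as a term. The cause was not tested. With the mean of a gene's detected probes, 3 transporters were higher and 1, Slc38a2, was lower at 5 mM against PBS. The replicate block changed no other such count, and whether its numbers pair the samples is not in the labels. Leaving out 1 array at a time gave 0 to 2 at 1 mM against PBS (0 without PBS replicate 1 and without 1 mM replicate 4), 2 to 2 at 2 mM, 3 to 3 at 5 mM, 0 to 0 between 1 and 2 mM and 3 to 4 between 2 and 5 mM. With 1 array left out a group kept at least 3. With BeadChip as a term, the calls over all tested genes were 496 higher and 298 lower at 1 mM (1175 and 900 without it), 838 and 476 at 2 mM (2349 and 1981), 1706 and 1269 at 5 mM (3388 and 2833), and 219 and 39 for 2 mM against 1 mM (452 and 179). Slc38a1 and Slc43a1 were not tested where probes had to be detected on all 18 arrays. Slc38a9 at 5 mM turned to −0.30 with BeadChip as a term. Over all alternatives the change at 5 mM against PBS ran from 0.75 to 2.47 for Rragd, 0.46 to 2.03 for Slc7a3, 0.33 to 1.63 for Mycl and −1.61 to −0.34 for Atf3, each called throughout. Median scaling moved the median of all tested genes to −0.12 at 1 mM and 0.12 at 5 mM against PBS, and to 0.18 for 5 mM against 2 mM. Of all genes called, it put 21.9% higher at 1 mM (56.6% with quantile normalization), 67.4% at 5 mM (54.5%), 98% between 1 and 2 mM (71.6%) and 82.4% between 2 and 5 mM (56.4%), while the transporters called kept their direction.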
